A study of Mus musculus with 15 samples.

Results

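RNA-seq profiles of 3 spontaneous mammary tumors without a TRIM24 transgene were compared with those of 4 disease-free mammary glands. The libraries were chosen by label, every tumor titled Non-TRIM24 and the first library of every Cre control, which makes 7 of the 15 libraries of the series and 7 of its 13 mice. The tumors (219, FVB001 and FVB002) are labelled as carcinomas of FVB mice with unknown genotype that arose spontaneously, and the text of the study gives their background as FVB or FVB/129. The glands (133, 392, 417_3 and 517_3) came from virgin females that carry the MMTV-Cre transgene, which drives Cre recombinase in the mammary epithelium, and were labelled FVB, although the text of the series names FVB/129. They were matched for age to the mice with the TRIM24 transgene, not to the tumor mice, whose age is not given in the sources used here. Whether the tumor mice carry Cre is also not given. The comparison asks how the RNA of a tumor without the TRIM24 transgene differs from that of a gland without a tumor.

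The mammary gland is a tree of ducts in a pad of fat. The ducts have an outer layer of contractile basal cells, marked by Krt5 and smooth muscle genes, and an inner layer of luminal cells, marked by Krt8 and Epcam, of which one kind senses estrogen and progesterone through Esr1 and Pgr and another makes milk. Tumors of this epithelium can take on squamous differentiation, the program by which skin keratinocytes make keratins and the precursors of the cornified envelope. Adipocytes, fibroblasts, vessels, nerves and immune cells lie around the ducts and are in every sample of whole tissue.

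All 3 tumors were sequenced in batch 2 and all 4 glands in batch 1. Only mice 133 (gland) and 3956 (a TRIM24 tumor) have a library in both batches, so a difference between batches and a difference between tumors and glands can be told apart only through these 2 mice. Values are TPM, the share of all transcripts that come from a gene, corrected for its length and scaled to the same total in each library. Each change below is the difference of log2(TPM + 1), tumors minus glands, from a limma fit to 10 libraries of 8 mice with the batch as a term and the 2 libraries of a mouse linked, and adjusted p-values (Benjamini-Hochberg) are over all 15311 genes with at least 1 TPM in at least 3 of the 7 libraries. The labels do not say how the samples were taken beyond 1 mouse each, so the p-values measure the spread between these samples. The median change over all tested genes was -0.29, and it was -0.02 after median-ratio rescaling and -0.03 after quantile normalization, so that a list with a median near -0.29 did not stand apart from the genes at large. The 2 libraries of mouse 133 differed by a median of 0.23 on the log2 scale and those of mouse 3956 by a median of 0.23, with 3.38% and 3.004% of genes more than 1 apart.

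The libraries did not fall into 2 even groups. The 20 adipocyte genes summed to 327 TPM in tumor 219, 74657 TPM in FVB001 and 36636 TPM in FVB002, and to 39326, 50937, 2745 and 2820.0 TPM in glands 133, 392, 417_3 and 517_3, so that fat genes were abundant in 2 of the 3 tumors and in 2 of the 4 glands. The 16 luminal epithelial genes ran from 602 TPM in FVB001 through 3407 TPM in FVB002 to 5975 TPM in tumor 219, and from 1208 to 5819 TPM in the glands, which puts FVB001, labelled a carcinoma, below every gland in luminal RNA. Epcam, an adhesion protein of epithelial cells, had 36.4 TPM in FVB001 against 153 TPM in the gland with the lowest level. FVB001 also held genes known from mesothelium, the lining of body cavities. Upk3b had 95.8 TPM in FVB001, 20.6 TPM in FVB002 and 0 in tumor 219, and at most 0.19 TPM in a gland. Of 10 mesothelial genes, a list written after these values were seen, 8 were above every gland library in FVB001, 8 in FVB002 and 2 in tumor 219, although their summed TPM (10.97 in tumor 219, 411 in FVB001, 119 in FVB002 and 24.3 to 116 in the glands) was held up in the glands by Rspo1. The list also summed to 307 and 364 TPM in the 2 libraries of the TRIM24 tumor 3956, in which Upk3b was listed at 0. FVB002 lay between tumors 219 and FVB001 for 92.2% of the genes more than 1 apart on the log2 scale between those 2. The 3 are counted as separate tumors, as labelled, and whether their profiles are independent was not tested. In bulk tissue, fewer cells of a type and less RNA per cell cannot be told apart. The part of fat, mesothelial and luminal RNA in the results below was not tested beyond the fits without FVB001 and with the adipocyte genes as a covariate.

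**Figure D1:**
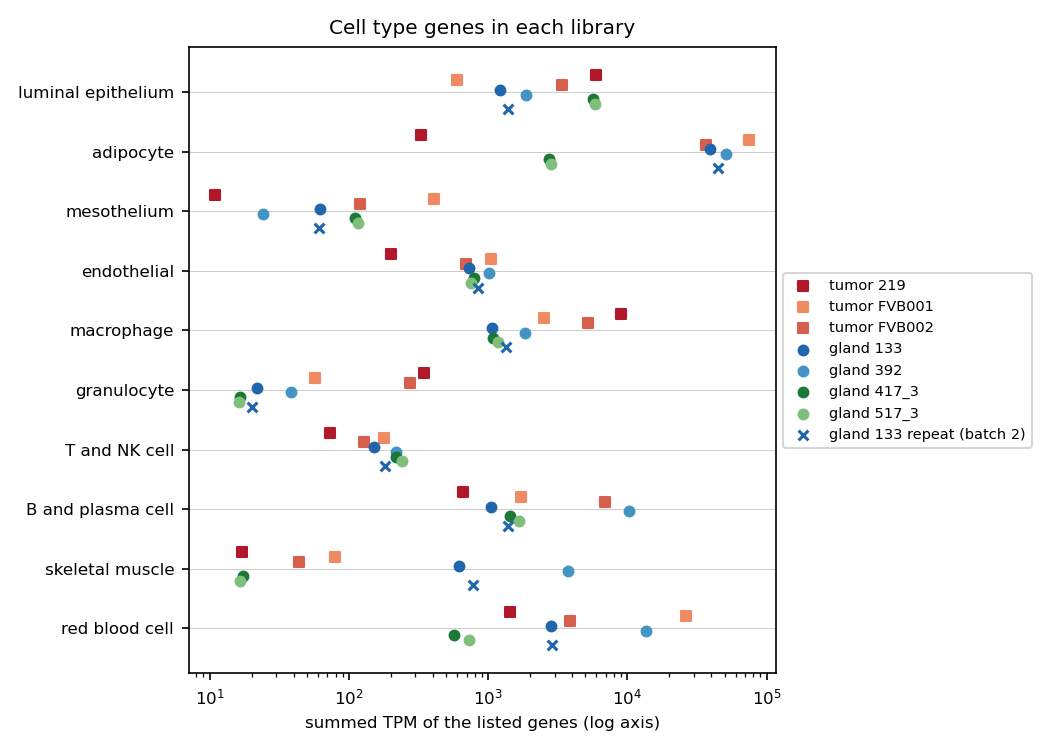
Summed TPM of the genes of 10 cell type lists (log axis) in each library, squares for the 3 tumors, circles for the 4 glands and crosses for the repeat library of gland 133. Tumor 219 had the lowest adipocyte sum (327 TPM) and FVB001 the highest (74657 TPM), and FVB001 had the lowest luminal sum (602 TPM).

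Glands 417_3 and 517_3 were nearly alike. Between them 2.66% of the tested genes were more than 1 apart on the log2 scale, fewer than between the repeat libraries of mouse 133 (3.38%), whereas 8.39% were between glands 133 and 392 and 29.8% to 39.1% between the other pairs of glands. The 2 libraries of mouse 133 are from different batches, so 3.38% includes any batch shift, whereas 417_3 and 517_3 share batch 1. Read counts were not used here, so it could not be tested whether the 2 differ by more than sampling noise. They are kept as 2 samples, and the main counts are also given with the 2 averaged as 1.

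In all, 23 genes passed the threshold, 0.15% of those tested. Of these, 9 were higher in the tumors (0.0588%) and 14 were lower (0.0914%). For each of the 23, no tumor overlapped with any gland. The tumors also differed in the same direction from the repeat library of gland 133, which shares their batch. Both are descriptions of genes chosen by p-value and add no support to the calls. Prl2c2, Il24, Serpinb2, Gm5514 and Gm25791 were under 1 TPM in every gland. The filter on low values admitted these genes only because every tumor reached that level, so it fixed their lack of overlap. The changes of the 22 described below ran in size from 2.25 to 7.08. At an unadjusted p under 0.05, 701 genes were higher (4.58%) and 1887 lower (12.3%), and every tumor lay above every gland for 7.79% of genes and below for 24.7%. The split by direction depended on the scaling, with 26 higher and 17 lower after median-ratio rescaling and 35 higher and 18 lower after quantile normalization.

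The number of calls rested on single libraries. With glands 417_3 and 517_3 averaged as 1 sample, 6 genes passed, all of them among the 23: Cxcl15, Calca, Ptn, Slc5a5, Gm5514 and 9530014B07Rik. Without tumor FVB001, 130 genes passed, 114 higher (0.745%) and 16 lower (0.105%), which include all 23. Without FVB002 no gene passed in limma, with 1674 at an unadjusted p under 0.05, and without tumor 219 there were 8. Leaving out gland 133, and with it 1 of the 2 mice that link the batches, gave 109, and leaving out glands 392, 417_3 and 517_3 in turn gave 10, 7 and 5. With the mean of the adipocyte genes as a covariate, 357 genes passed, 152 higher (0.993%) and 205 lower (1.34%), again with all 23 among them.

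**Figure D2:**
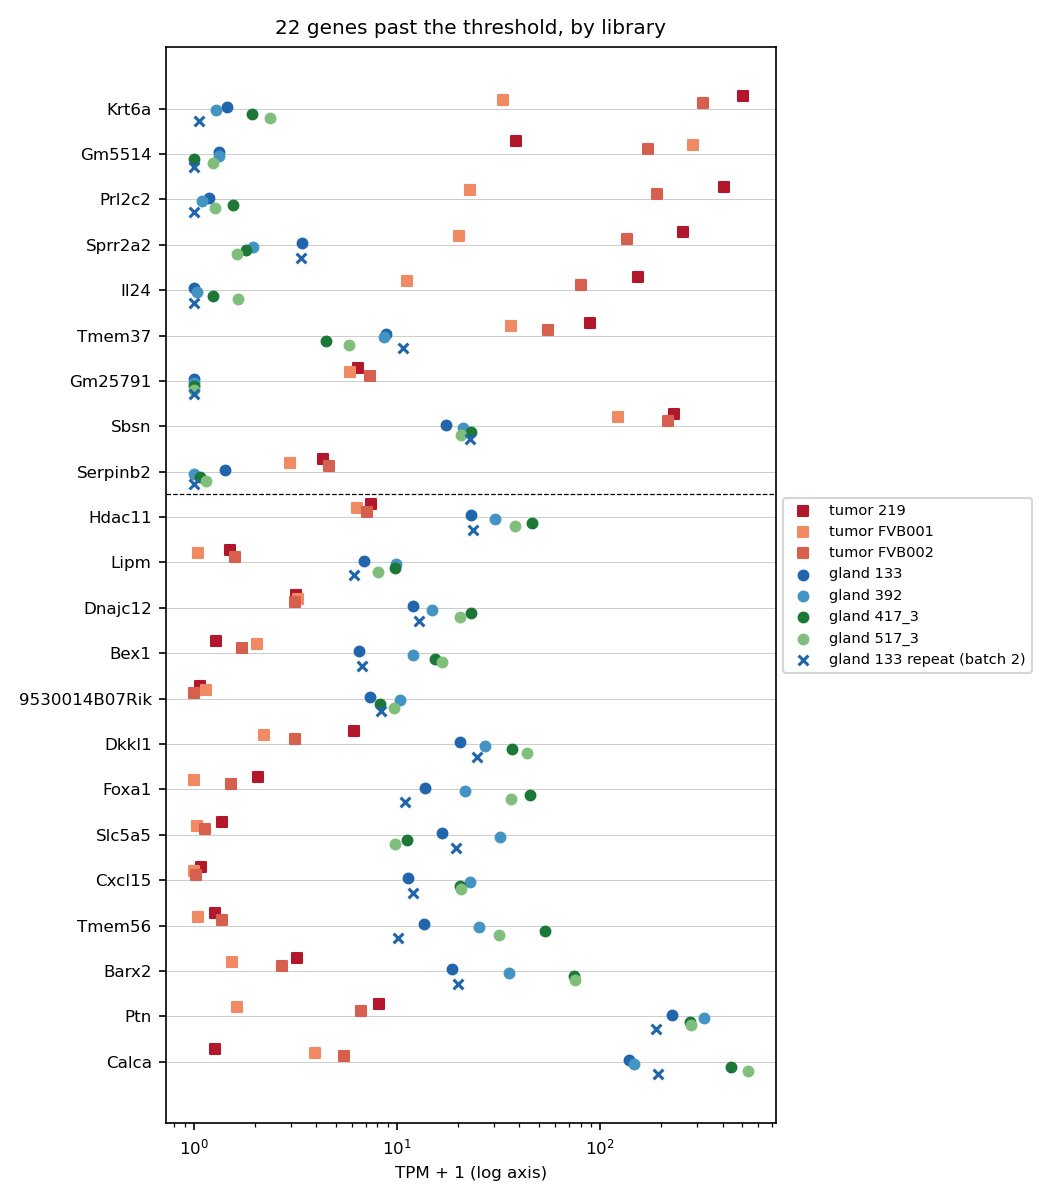
TPM + 1 (log axis) of 22 genes past the threshold in the 3 tumors (squares), the 4 glands (circles) and the repeat library of gland 133 (crosses), with the 9 genes higher in the tumors above the dashed line and 13 lower ones below it. Tumors and glands do not overlap for any of the 22, which the filter on low values and the choice by p-value favor. FVB001 lies nearest to the glands for 8 of the 9 higher genes, Gm5514 being the exception.

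Of the genes of squamous differentiation, Krt6a and Sbsn rose in the tumors. Krt6a (chromosome 15, 101689910 to 101694307, GRCm38), a keratin of hyperproliferating and wounded epithelium, had 503 TPM in tumor 219, 32.2 in FVB001 and 320.5 in FVB002. In the glands it had 0.46, 0.29, 0.94 and 1.36 TPM (133, 392, 417_3, 517_3, the order kept below). Even the lowest tumor was far above the highest gland, and the change was 7.08 (SE 0.84, limma adjusted p = 0.0254), the largest of the 23 in size. Its neighbor Krt6b, which can share reads with it, had 61.4, 3.81 and 42.7 TPM in tumors 219, FVB001 and FVB002 and at most 0.12 TPM in a gland, and did not pass (change 4.50, limma adjusted p = 0.06596).

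Sbsn (chromosome 7, 30751471 to 30756134), which encodes suprabasin of differentiating keratinocytes, was at 229, 121 and 215 TPM in tumors 219, FVB001 and FVB002. The glands had 16.4, 20.2, 22.2 and 19.6 TPM. All 3 tumors were high, FVB001 included, and the glands were close together (change 2.67, SE 0.32, limma adjusted p = 0.0254). Sprr2a2 (chromosome 3, 92215920 to 92256724), a small proline-rich precursor of the cornified envelope, had 253, 19.3 and 135 TPM in the tumors. Its level in the glands was 2.42, 0.96, 0.81 and 0.62 TPM (change 5.42, SE 0.78, limma adjusted p = 0.0452). Near-identical copies lie beside it, so the share of its reads is uncertain. Sprr2a2 is not in the list of 21 squamous genes. Of these, 12 were tested, 2 passed (Krt6a and Sbsn), 7 were higher at an unadjusted p under 0.05 (4.58% of all genes), and the median change was 2.36 (all genes -0.29). In every tumor 6 were above every gland (7.79% of all genes) and 1 below (24.7%), and 4 had a lower fitted value (67.1%). The 21 genes summed to 1225, 198 and 868 TPM in tumors 219, FVB001 and FVB002. The glands had 48.7, 49.4, 194 and 156 TPM, so FVB001 was near glands 417_3 and 517_3. Without FVB001, 5 passed, all of them higher (0.745% of all genes in that fit), and the median was 3.07. Krt1, the keratin of the suprabasal layers of skin, was at most 0.09 TPM in a tumor and 0.42 TPM in a gland, and 9 listed genes were below the limit for testing.

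The genes of 2 secreted factors, Prl2c2 and Il24, and of the protease inhibitor Serpinb2 also rose. Prl2c2 (chromosome 13, 12996125 to 13005383), a proliferin of the prolactin family best known from the placenta, had 404 TPM in tumor 219, 21.96 in FVB001 and 189 in FVB002. No gland had more than 0.55 TPM (change 6.79, SE 0.84, limma adjusted p = 0.0275). Reads of Prl2c2, Prl2c3 and Prl2c5 cannot be cleanly assigned because the genes are near copies. Their summed level was 1394 TPM in tumor 219, 68.4 in FVB001 and 610.4 in FVB002, against 0.67 to 3.59 TPM in the glands. Il24 (chromosome 1, 130882074 to 130887454), a cytokine of the IL-10 family, followed the same order, at 152, 10.2 and 79.3 TPM in tumors 219, FVB001 and FVB002. Gland 133 was listed at 0 and the other glands had 0.04, 0.24 and 0.64 TPM (change 5.42, SE 0.78, limma adjusted p = 0.0452). Serpinb2 (chromosome 1, 107511423 to 107535478), an inhibitor of plasminogen activators, was low throughout, at 3.3, 1.98 and 3.61 TPM in the tumors and at most 0.42 TPM in a gland (change 2.25, SE 0.31, limma adjusted p = 0.0415).

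Tmem37 (chromosome 1, 120067377 to 120074074), a membrane protein gene, was at 88.03, 35.5 and 54.5 TPM in tumors 219, FVB001 and FVB002. The glands had 7.85, 7.61, 3.49 and 4.82 TPM (change 2.77, SE 0.39, limma adjusted p = 0.0427). The remaining higher calls code for no known protein. The processed pseudogene Gm5514 ran the other way among the tumors, with 37.3 TPM in tumor 219, 285 in FVB001 and 171 in FVB002 and at most 0.33 TPM in a gland (change 6.89, SE 0.67, limma adjusted p = 0.00821). The small nucleolar RNA Gm25791 had 5.39, 4.84 and 6.32 TPM in the tumors and was listed at 0 in all 4 glands, in the repeat library of gland 133 and in both libraries of tumor 3956 (limma adjusted p = 0.0102). Reads of a processed pseudogene or a small RNA may come from another locus.

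Of the 9 higher genes, 4 have an entry among the RefSeq promoters (GRCm38.p6), and the core of the AP-1 binding motif, TGANTCA, which reads the same on both strands, was searched in the 250 bases before each RefSeq start site. The motif was chosen with the called genes known. It was found before Sbsn, Serpinb2 and Tmem37 and not before Sprr2a2, before 0 of the 9 lower genes with an entry, and before 7.82% of the 27025 genes in the table. The 27 bases around each match are shown because AP-1 factors are known to act at genes of keratinocyte differentiation. The motif is in capitals, on the strand of the gene, and starts 119 bases before the RefSeq start site of Sbsn, 181 before that of Serpinb2 and 103 before that of Tmem37. GENCODE places some starts elsewhere, so that measured from the gene coordinates given above the match lies 119 bases before Sbsn, 94 before Serpinb2 and 191 inside Tmem37. A match is a description of these letters and no evidence of binding.
Sbsn, chr7:30751342-30751368, plus strand: atcttgtccaTGAATCAtcctgtcttc
Serpinb2, chr1:107511319-107511345, plus strand: agtaaaatgtTGAATCAtacaaagaat
Tmem37, chr1:120073867-120073893, minus strand: agggcgctgcTGAGTCAgcgtaacccg

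Among the lower genes, Calca (chromosome 7, 114631478 to 114636357), which encodes calcitonin and its related peptide and is known as a gene that progesterone induces in the gland, changed most. It had 0.27 TPM in tumor 219, 2.96 in FVB001 and 4.5 in FVB002. The glands had 138, 146, 441 and 532 TPM. Every gland was above the highest tumor by a wide margin (change -6.97, SE 0.67, limma adjusted p = 0.00821). Ptn (chromosome 6, 36714929 to 36810220), the growth factor pleiotrophin, was at 7.11, 0.62 and 5.61 TPM in tumors 219, FVB001 and FVB002. It was even across the glands, at 224, 323, 274 and 277 TPM, although these glands differ in their fat genes (change -5.63, SE 0.52, limma adjusted p = 0.00821). Cxcl15 (chromosome 5, 90794534 to 90803067), a chemokine gene of epithelia, had 0.08 TPM in tumor 219, was listed at 0 in FVB001 and had 0.02 TPM in FVB002. The glands had 10.3, 21.9, 19.4 and 19.7 TPM (change -4.09, SE 0.36, limma adjusted p = 0.00821). Slc5a5 (chromosome 8, 70882889 to 70892757), the sodium and iodide symporter that takes up iodide into milk, was at 0.38, 0.03 and 0.13 TPM in the tumors. Its levels in the glands were 15.7, 31.1, 10.2 and 8.71 TPM (change -3.93, SE 0.44, limma adjusted p = 0.02003). Of the 7 fits that left out 1 mouse each, Calca, Ptn and Cxcl15 passed in 6 and Slc5a5 in 5.

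The luminal gene Foxa1, the homeobox gene Barx2 and the deacetylase gene Hdac11 were also lower. Foxa1 (chromosome 12, 57540628 to 57546916), the pioneer factor of hormone-sensing luminal cells, had 1.07 TPM in tumor 219, was listed at 0 in FVB001 and had 0.53 TPM in FVB002. It had 12.7, 20.5, 44.3 and 35.2 TPM in the glands (change -3.72, SE 0.49, limma adjusted p = 0.0369). It was thus low in tumor 219 as well, in which the luminal genes Epcam and Krt8 had 516 and 1836 TPM, against 643 and 1243 TPM in gland 417_3. Barx2 was at 2.22, 0.54 and 1.7 TPM in the tumors and 17.6 to 74.1 TPM in the glands (change -4.22, limma adjusted p = 0.0322). Hdac11 had 5.37 to 6.47 TPM in the tumors and 22.04 to 45.02 TPM in the glands (change -2.36, limma adjusted p = 0.0441).

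The 6 further lower genes had changes between -2.41 and -4.18, with limma adjusted p between 0.00821 and 0.0441. Dnajc12, a co-chaperone gene of the HSP40 family, was at 2.15 to 2.25 TPM in the tumors and 10.9 to 22.1 TPM in the glands. Dkkl1, a gene related to the Wnt inhibitors of the dickkopf family, was at 1.22 to 5.14 TPM against 19.4 to 42.5 TPM. Bex1 had 0.29 to 1.04 TPM in the tumors and 5.5 to 15.7 TPM in the glands. None of these 3 overlapped between the groups. Tmem56 was at 0.05 to 0.37 TPM in the tumors and 12.5 to 52.4 TPM in the glands, and Lipm, a lipase gene of keratinocytes, at 0.05 to 0.59 and 5.9 to 8.9 TPM. The noncoding RNA 9530014B07Rik was listed at 0 to 0.14 TPM in the tumors and had 6.38 to 9.35 TPM in the glands (limma adjusted p = 0.00821).

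Genes of hormone response had mostly lower fitted values in the tumors. Of 13, 12 were tested, 1 passed (Calca), and 9 were lower at an unadjusted p under 0.05 (12.3% of all genes). Every tumor was below every gland for 9 of them (24.7% of all genes), and the median change was -1.78 (all genes -0.29), between -2.21 and -1.17 over the alternatives. Cited1, a cofactor of the estrogen receptor, had 11.6, 2.51 and 5.8 TPM in tumors 219, FVB001 and FVB002 and 47.9, 154, 195 and 233 TPM in the glands (change -4.41, limma adjusted p = 0.0593). Pgr, the progesterone receptor, was at most 0.16 TPM in a tumor and at least 2.71 TPM in a gland (change -2.11, limma adjusted p = 0.15964). Esr1, the estrogen receptor, had 1.3, 7.67 and 3.47 TPM in the tumors and 8.02 to 11.6 TPM in the glands, so that FVB001 came close to the lowest gland (change -1.06, limma adjusted p = 0.305). Stat5a, the transcription factor of prolactin signaling, was at 13.5 to 20.7 TPM in the tumors and 26.4 to 81.5 TPM in the glands (change -1.69, limma adjusted p = 0.127). None of these 4 passed the adjusted threshold.

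The other epithelial lists depended on which tumors or glands were included. Of 16 luminal genes, Foxa1 alone passed, 4 were lower at an unadjusted p under 0.05 (12.3% of all genes), and the median change was -0.90 with all tumors and 0.04 without FVB001. The 4 lower genes were all transcription factors or the receptor tyrosine kinase gene Kit, which had 22.9, 5.95 and 26.5 TPM in tumors 219, FVB001 and FVB002 and 42.95 to 128 TPM in the glands (change -2.08, limma adjusted p = 0.158). Of 11 basal genes 0 passed in limma, 4 were lower at an unadjusted p under 0.05 (12.3% of all genes), Cnn1, Myh11 and Mylk of the contractile apparatus among them, and the median was -1.41. The basal median was -1.29 without tumor 219 and -1.10 without FVB001. It moved more with the glands, to -0.61 with glands 133 and 392 alone as controls (all genes -0.17). Cnn1, calponin, was at 1.99 to 4.68 TPM in the tumors, 27.6 and 37.6 TPM in glands 133 and 392 and 429 and 427 TPM in glands 417_3 and 517_3 (change -4.77, limma adjusted p = 0.105). Krt5, the defining basal keratin, overlapped between the groups, at 107, 5.66 and 53.3 TPM in the tumors and 40.8 to 409 TPM in the glands.

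Milk genes were split. Of 16, 0 passed in limma, 2 were higher and 4 lower at an unadjusted p under 0.05 (4.58% and 12.3% of all genes), and the median change was 0.45 with all tumors, -0.01 without tumor 219 and 1.46 without FVB001. Their sum was 43195 TPM in tumor 219, 2858 in FVB001 and 21659 in FVB002, and 8532, 1657, 12454 and 12874 TPM in the glands. Csn3, kappa-casein, had 18055, 1096 and 7886 TPM in tumors 219, FVB001 and FVB002 and 435 to 1183 TPM in the glands (change 2.90, limma adjusted p = 0.189), and it passed without FVB001 (adjusted p = 0.0155). Muc15, a mucin of the milk fat globule membrane, lay on the other side, at 17.1, 0.71 and 14.3 TPM in the tumors and 32.5 to 299 TPM in the glands (change -3.59, limma adjusted p = 0.164).

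**Figure D3:**
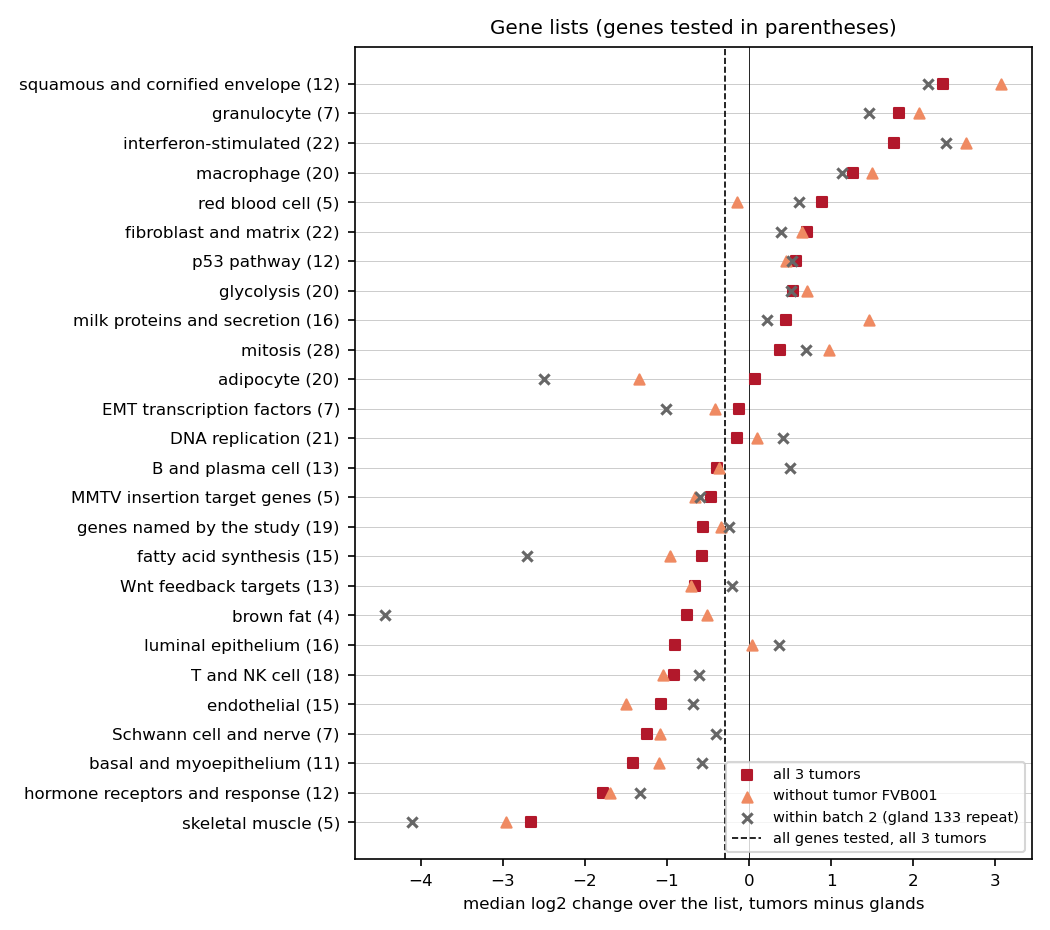
Median log2 change (tumors minus glands) over the tested genes of each list, with all 3 tumors (squares), without FVB001 (triangles) and as the difference from the repeat library of gland 133 within batch 2 (crosses); the dashed line is the median of all tested genes (-0.29). Squamous (2.36), granulocyte (1.83), interferon-stimulated (1.76) and macrophage (1.27) lists lie highest, hormone response (-1.78) and skeletal muscle (-2.65) lowest, and the adipocyte median moves from 0.07 to -2.50 within batch 2.

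Interferon-stimulated genes had mostly higher fitted values and were most abundant in tumors 219 and FVB002. Of 22 tested, 0 passed in limma with all tumors, and 6 passed without FVB001, all of them higher (0.745% of all genes in that fit). With all tumors 12 were higher at an unadjusted p under 0.05 (4.58% of all genes), and the median change was 1.76 (between 1.21 and 2.92 over the alternatives). Isg15, a ubiquitin-like protein that interferon induces, had 693, 69.8 and 452 TPM in tumors 219, FVB001 and FVB002 and 13.8, 45.4, 32.4 and 35.9 TPM in the glands (change 2.60, limma adjusted p = 0.189, 0.0239 without FVB001). Mx1, an antiviral GTPase, was at 28.8, 3.01 and 25.4 TPM in the tumors and 0.74 to 2.74 TPM in the glands (change 2.47, limma adjusted p = 0.177), and Bst2, which tethers virions, at 275 to 959.6 and 86.1 to 188 TPM. With the adipocyte genes as a covariate 0 of the 22 passed (0.993% of all genes were higher and 1.34% lower in that fit).

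Myeloid genes had mostly higher and T cell genes mostly lower fitted values. Of 20 macrophage genes, 0 passed in limma, 10 were higher at an unadjusted p under 0.05 (4.58% of all genes), 8 were higher in every tumor than in every gland (7.79%), and the median change was 1.27. Spp1, osteopontin, which tumor cells also make, had 5980.0, 357 and 3011 TPM in tumors 219, FVB001 and FVB002 and 15.6 to 94.9 TPM in the glands (change 5.32, limma adjusted p = 0.0666). Trem2, a lipid receptor of macrophages, was highest in FVB001, at 35.1, 163 and 49.9 TPM in the tumors and 0.7 to 8.9 TPM in the glands (change 3.86, limma adjusted p = 0.0826). Adgre1, the defining F4/80 antigen, overlapped (8.36 to 12.2 TPM in the tumors and 3.84 to 26.5 TPM in the glands). Of 7 tested granulocyte genes 4 were higher at an unadjusted p under 0.05 (4.58% of all genes), with a median of 1.83. S100a8, a calprotectin subunit of neutrophils that stressed keratinocytes also make, had 126, 17.7 and 90.3 TPM in the tumors and 1.99 to 4.82 TPM in the glands (change 4.01, limma adjusted p = 0.0593).

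Of 18 tested T and NK cell genes 0 passed in limma, 10 were lower at an unadjusted p under 0.05 (12.3% of all genes), 7 were below every gland in every tumor (24.7%), and the median change was -0.91 (between -1.43 and -0.56 over the alternatives). Cd3e, a subunit of the T cell receptor complex, had 1.11, 1.88 and 2.31 TPM in tumors 219, FVB001 and FVB002 and 4.03, 4.41, 6.71 and 6.53 TPM in the glands (change -1.42, limma adjusted p = 0.142). The highest tumor and the lowest gland were less than 2 TPM apart. B and plasma cell genes had a median of -0.39 and summed to 662, 1732 and 6922 TPM in the tumors and 1049, 10331, 1428 and 1652 TPM in the glands, so that FVB002 and gland 392 stood out and the groups overlapped.

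Matrix genes had mostly higher fitted values, and no matrix, vessel or nerve gene passed the threshold in limma. Of 22 fibroblast and matrix genes, 17 had a higher fitted value (32.9% of all genes). Of the 22, 6 were higher at an unadjusted p under 0.05 (4.58% of all genes) and 7 were higher in every tumor than in every gland (7.79%). Their median change was 0.70, between 0.18 and 1.01 over the alternatives. The lowest median was with glands 133 and 392 alone as controls (all genes -0.17). Fn1, fibronectin, had 187, 76.9 and 122 TPM in tumors 219, FVB001 and FVB002 and 17.1 to 27.02 TPM in the glands (change 2.21, limma adjusted p = 0.0979). Col1a1, the main fibrillar collagen, had 90.2 to 234 TPM in the tumors and 39.5 to 80.96 TPM in the glands (change 1.38, limma adjusted p = 0.172). Of 15 tested endothelial genes 2 were lower at an unadjusted p under 0.05, a share near the 12.3% of all genes, and 13 had a lower fitted value (67.1% of all genes), with a median of -1.07 that moved to -0.32 without tumor 219. Pecam1, the junction protein of endothelium, had 16.4, 75.8 and 48.3 TPM in the tumors and 62.2 to 132 TPM in the glands (limma adjusted p = 0.286). Of 7 Schwann cell genes 4 were lower at an unadjusted p under 0.05 (12.3% of all genes), with a median of -1.24.

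Fat, muscle and blood genes varied widely between libraries of the same group and did not separate the tumors from the glands. The adipocyte median was 0.07 with all tumors, -4.89 with tumor 219 alone and 2.46 without it, and 0 of 20 genes had an unadjusted p under 0.05. Adipoq, the adipokine adiponectin, had 3.31, 4315 and 1525 TPM in tumors 219, FVB001 and FVB002 and 1718, 1946, 10.2 and 10.8 TPM in the glands. Brown fat genes had a median of -0.76 over 4 tested. Ucp1, the uncoupling protein of brown fat, was at 139 TPM in gland 133, 36.2 TPM in FVB002 and at most 7.58 TPM in the other libraries of the comparison. Fatty acid synthesis genes had a median of -0.58. Fasn, fatty acid synthase, was highest in gland 133 (2045 TPM) and lowest in tumor 219 (60.8 TPM). The 13 skeletal muscle genes summed to 16.98 to 78.7 TPM in the tumors, 615 and 3736 TPM in glands 133 and 392 and 16.6 and 17.4 TPM in glands 517_3 and 417_3, with a median of -2.65 over 5 tested. Hemoglobin and other red blood cell genes summed to 26360.0 TPM in FVB001 and 13672 TPM in gland 392 and to at most 3864 TPM in the others.

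Genes of cell division gave no call with all tumors. The 28 mitotic genes had a median change of 0.38 (0.98 without FVB001), and 1 was higher at an unadjusted p under 0.05 (4.58% of all genes). That gene, Ube2c, a ubiquitin conjugating enzyme of mitotic exit, had 86.01, 16.7 and 51.2 TPM in tumors 219, FVB001 and FVB002 and 11.96 to 21.8 TPM in the glands (change 1.65, limma adjusted p = 0.208, 0.0413 without FVB001). Mki67, the proliferation marker, overlapped, at 1.21 to 6.32 TPM in the tumors and 1.64 to 19.4 TPM in the glands. DNA replication genes had a median of -0.15, and 1 of 21 was higher at an unadjusted p under 0.05. Of 12 genes of the p53 pathway 2 were higher at an unadjusted p under 0.05 (4.58% of all genes), with a median of 0.57. Cdkn1a, the p21 inhibitor of the cell cycle, was at 207 to 258 TPM in the tumors and 22.9 to 116 TPM in the glands (change 2.05, limma adjusted p = 0.158), and FVB001 was as high as tumor 219. Of 20 glycolysis genes 4 were higher at an unadjusted p under 0.05 (4.58% of all genes), with a median of 0.54, and Gapdh was at 649 to 1547 TPM in the tumors and 441 to 488 TPM in the glands (change 1.16, limma adjusted p = 0.19012).

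The mouse mammary tumor virus activates certain oncogenes where it inserts, among them Wnt1, Fgf3 and Notch4. Of 15 such genes 5 reached the limit for testing and 0 passed in limma. At an unadjusted p under 0.05, 0 were higher and 2 lower (4.58% and 12.3% of all genes). Every tumor was below every gland for 2 of the 5 (24.7% of all genes), and Wnt1 was at most 0.02 TPM in a tumor. Wnt feedback targets, of which 13 were tested, had a median of -0.66 with 2 higher and 3 lower at an unadjusted p under 0.05 (4.58% and 12.3% of all genes). Axin2, the common readout of Wnt signaling, overlapped between the groups (0.9, 15.5 and 6.16 TPM in tumors 219, FVB001 and FVB002 and 6.17 to 16.2 TPM in the glands), and the secreted inhibitor Wif1 was at 0.06 to 0.22 TPM in the tumors and 5.96 to 35.4 TPM in the glands (change -3.56, limma adjusted p = 0.0791). Among 7 transcription factors of epithelial to mesenchymal transition, the median was -0.12. Snai2 had 2.56 to 3.78 TPM in the tumors and 9.38 to 19.4 TPM in the glands (change -1.64, limma adjusted p = 0.0927), whereas Snai1 had 8.92 to 35.1 TPM in the tumors and 4.53 to 12.1 TPM in the glands (change 1.35, limma adjusted p = 0.256). Neither passed the adjusted threshold.

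Of 19 genes that the study names, chosen there with some of these samples in view, 0 passed in limma, 4 were higher and 3 lower at an unadjusted p under 0.05 (4.58% and 12.3% of all genes), and the median change was -0.56. Trim24, the gene of the transgene in the other tumors, had 5.34, 9.34 and 10.04 TPM in tumors 219, FVB001 and FVB002 and 14.5, 18.4, 22.4 and 15.9 TPM in the glands. Every tumor was below every gland of batch 1, but the repeat library of gland 133 had 11.1 TPM, near the highest tumor, and the change was -0.63 (SE 0.31, limma adjusted p = 0.333). The receptor tyrosine kinase gene Met had 232, 22.6 and 239.5 TPM in the tumors and 20.9 to 42.4 TPM in the glands. FVB001 alone lay among the glands, and Met passed without it (change 2.38 and limma adjusted p = 0.215 with all tumors, 0.00886 without FVB001). Tes, Capza2, St7 and Cav2, near Met on chromosome 6, were picked after their higher values were seen. They had changes of 4.46, 3.13, 2.88 and 2.08 with all tumors (limma adjusted p = 0.125, 0.148, 0.135 and 0.174), and none passed. The other genes of the region, those with lower values among them, were not counted, so these values do not describe the region. Cdkn2a, which encodes p16 and p19ARF, was at 65.6, 10.01 and 33.8 TPM in the tumors and 2.49, 16.5, 3 and 3.41 TPM in the glands (limma adjusted p = 0.221). Vim, the intermediate filament of mesenchymal cells, overlapped between the groups (424 to 1338 TPM in the tumors and 412 to 765 TPM in the glands), as did Cdh1, E-cadherin (4.84 to 66.4 and 36.9 to 196 TPM). Lgals1, galectin-1, was highest in FVB001 (7189.8 TPM, against 1879.5 TPM in tumor 219 and 114 to 1489 TPM in the glands) and did not pass (limma adjusted p = 0.249). Syt9, at 0.07 to 0.23 TPM in the tumors and 1.27 to 9.51 TPM in the glands, and Ltk, at 0.02 to 1.12 and 1.67 to 5.59 TPM, had limma adjusted p of 0.152 and 0.2096. Fn1, Pgr and Esr1 are given above, and the other 8 (Mif, Erbb2, Mtor, Vtcn1, Aldh1a1, Sncg, Trp53 and Akt1) had a limma adjusted p of 0.333 or more.

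The 3 tumors differed from each other, and FVB002 lay between the other two. Within batch 2, the Spearman correlation over the 15311 genes was 0.924 between tumors 219 and FVB002, 0.922 between FVB001 and FVB002 and 0.797 between 219 and FVB001. FVB001 was closer to the repeat library of gland 133 (0.904) than to tumor 219. Of 4781 genes more than 1 apart on the log2 scale between 219 and FVB001, FVB002 was between them, or equal to one, for 4408. The choice of genes by that gap favors this outcome, and no other library was set in the place of FVB002.

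Genes under 1 TPM in every gland library and at least 20 TPM in a tumor numbered 19 for tumor 219, 16 for FVB002 and 9 for FVB001, 30 distinct genes in all. The choice makes the named tumor high, so the levels in the other tumors are given as a description. The 19 had a median of 6.45% of their level in tumor 219 in FVB001 and of 57.8% in FVB002. The 16 had a median of 74.8% of their level in FVB002 in tumor 219 and of 8.79% in FVB001. The 9 had a median of 0.104% of their level in FVB001 in tumor 219 and of 30.8% in FVB002. FVB002 was between the other two, or equal to one, for 24 of the 30. Gphb5, a glycoprotein hormone subunit, had 118, 6.72 and 78.6 TPM in tumors 219, FVB001 and FVB002, and the granzyme gene Gzme had 23.1, 1.51 and 6.06 TPM. The small RNA gene Rny1 ran the other way, at 37.2, 97.3 and 49.8 TPM. The order 219, FVB002, FVB001 held for 6 of the 9 higher calls. The correlations and shares are descriptions across genes, which are not independent replicates.

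**Figure D4:**
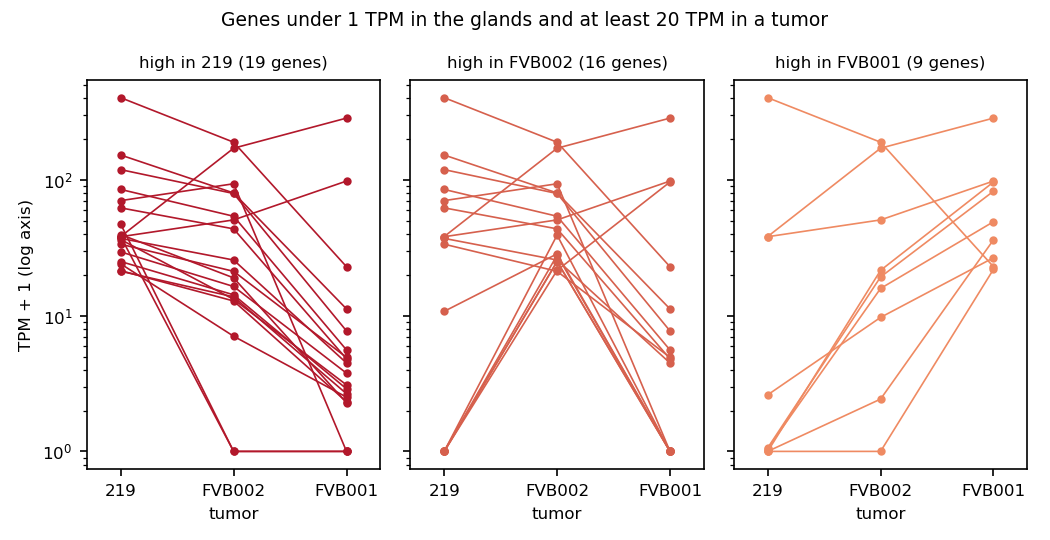
TPM + 1 (log axis) in the 3 tumors of genes under 1 TPM in every gland library and at least 20 TPM in tumor 219 (19 genes, left), FVB002 (16, middle) or FVB001 (9, right), with a line joining the values of a gene and some genes in more than 1 panel. The tumor that chose a panel is high by construction, and FVB002 is between the other two, or equal to one, for 24 of the 30 distinct genes.

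The tumors were also set beside the repeat library of gland 133, which was sequenced in their batch. The difference shares its tumor libraries with the fit, and the repeat library is in the fit too, so it is a description and no independent check. All 23 calls had the same sign there, as had 77.1% of all tested genes and 93.3% of the 553 with a change over 2 in size. Calca differed by -6.00 within batch 2, against a fitted change of -6.97. Ptn differed by -5.41 (fitted -5.63), Krt6a by 7.37 (fitted 7.08) and Prl2c2 by 6.92 (fitted 6.79). For none of the 22 described above did the mean shift of the 2 repeated mice exceed 0.56 in size, against a smallest change of 2.25. Genes at or near 0 TPM in both repeated mice, such as Gm25791 and Gm5514, could not show a shift there. The calls also come from a fit that uses these libraries, so the small shifts are a description, and a part of the batch in the calls was not tested. A fit within batch 2 alone, with 3 tumors and 1 gland library, passed no gene in limma and had 990 at an unadjusted p under 0.05, and there the lone gland is assumed to vary as the tumors do. Among 386 listed or named genes, 85 had opposite signs in the fit and within batch 2.

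**Figure D5:**
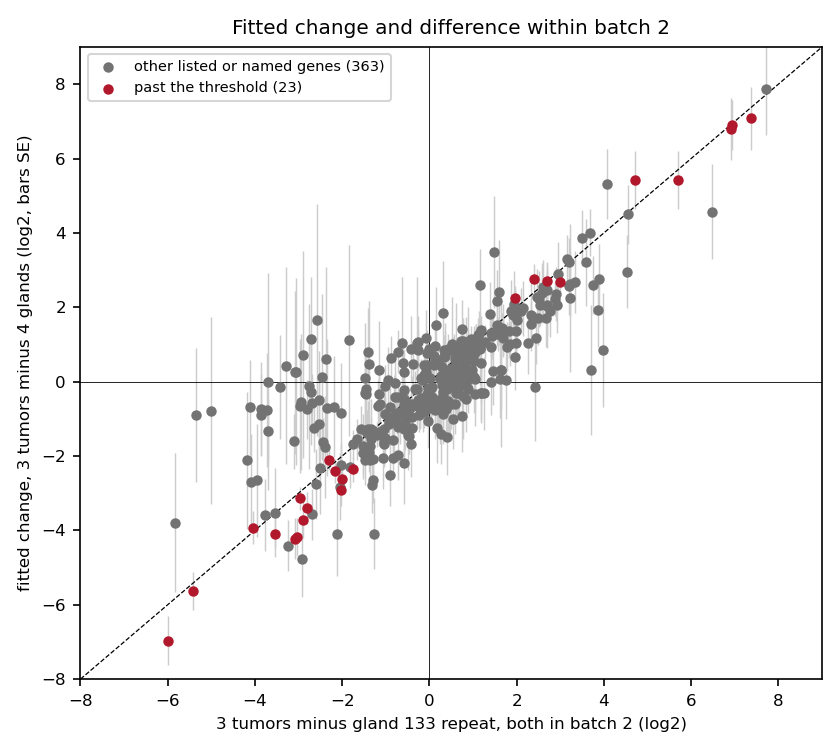
Fitted log2 change (3 tumors minus 4 glands, bars are standard errors) against the difference of the 3 tumors from the repeat library of gland 133 within batch 2, for 386 listed or named genes, with the dashed line at equality. The 23 genes past the threshold (red) keep their sign, and 85 of the 386 genes change it.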

How the data were processed

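The deposited values are TPM. Per the methods of the study, the authors trimmed reads with Trimmomatic, aligned them to GRCm38 with STAR and estimated transcript abundance with RSEM, and the submitters' processing notes also list FastQC, TopHat, Cufflinks, DESeq and edgeR without a role. Labels and methods differ on the RNA and library kits. TPM sum to the same total in each library and give no depth or counting error. Read counts that the study lists for selected genes of another comparison are not used here. Batches 1 and 2 are 2 tables with the same genes, one normalization within each library.

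Changes of log2(TPM + 1) were fitted with limma 3.58.1 (R 4.3.3, two-sided, variance trend), with tumors, glands and mouse 3956 as groups, batch as a term and the mouse as a block, over genes with at least 1 TPM in at least 3 of the 7 libraries. Lists are described by counts and medians without a set test. The fit was tested on simulated data in which tumors and glands had the same spread between mice, taken from the glands. Tumors as unlike as these were not simulated, so the test does not show how the fit performs on them. Named genes are up to 12 calls in each direction by adjusted p-value and the 8 largest, without overlap or clone names, the first gene and the 3 smallest p-values of each of 26 lists, and genes the study names. Krt8, Lcn2, Upk3b, the genes under 1 TPM in the glands and high in a tumor, calls with clone names and Hdac11 fall outside that rule and were named after their values were seen, as were 3 alternatives and the mesothelial and proliferin lists. The same holds for Tes, Capza2, St7 and Cav2. The members and lists were chosen with earlier results of these data known. The values of 4 genes, 1 of them among the lower calls, are not reported here. Coordinates are from GENCODE M21 (GRCm38). Figures and counts used Python 3.11.15 and pandas 2.3.3.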

Additional observations from a re-analysis of the deposited data

Results flagged for a closer look

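Of 123 named genes, 5 had 1 of the 4 control glands far from the other 3 in TPM by Dixon's ratio, which chance gives for about 1 gene in 20. Gland 392 stood apart for the macrophage gene Cd68 (31.8 TPM), the cell cycle inhibitor Cdkn2a (16.5 TPM) and the casein gene Csn1s1 (53.9 TPM, the lowest gland). Gland 133 was the lowest for the chemokine gene Cxcl15 (10.3 TPM) and for Fn1 (17.1 TPM).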

How the results depend on the processing

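All 23 calls kept their direction in every alternative that tested them. With 0.1 TPM added before taking logs 13 genes passed (4 higher, 9 lower), with a mean of at least 5 TPM 15 (5 higher, 10 lower), without a filter on low values 0 (3105 at an unadjusted p under 0.05, over 38800 genes), with median-ratio rescaling 43 (26 higher, 17 lower) and with quantile normalization 53 (35 higher, 18 lower). Without the link between the libraries of a mouse 8 passed (4 and 4), with all 15 libraries 131 (37 higher, 94 lower), with the mean shift subtracted 38 (15 higher, 23 lower), without a batch term 907 (235 higher, 672 lower) and within batch 2 alone 0. The adipocyte covariate gave 357 (152 higher, 205 lower). The shift from mouse 133 alone gave 34 and from mouse 3956 alone 26. Leaving out each mouse in turn gave 0 to 130 calls, 0 to 114 higher and 0 to 72 lower. Chosen after seeing the data, tumor 219 alone gave 41 (29 higher, 12 lower), glands 133 and 392 alone as controls 0 (1658 at an unadjusted p under 0.05), and glands 417_3 and 517_3 averaged 6 (1 higher, 5 lower). The cause of these moves was not tested. No paired analysis was possible because tumors and glands share no mouse. TPM give no depth, so the limit it sets cannot be given, and 3 tumors and 4 glands limit the precision throughout.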

Other observations

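Lcn2, the iron-binding protein lipocalin 2, was the most abundant gene of tumor 219, at 20296 TPM, with 1738.7 TPM in FVB001 and 10172 TPM in FVB002 and 268 to 2160.3 TPM in the glands. Values in FVB001 were lower than in tumor 219 for Krt6a, Prl2c2, Il24, Isg15, Csn3 and Spp1, and higher for Trem2, Cd68, Lgals1 and Gm5514. Among the 19 genes high in tumor 219 and under 1 TPM in the glands, Dynap and Gzme were also abundant in the TRIM24 tumor 3956 sequenced beside it (484 and 56.9 TPM), whereas Krt6b was listed at 0 there. Small RNAs such as Snord13 and Snord23 were listed at 0 in some tumors and at up to 92.9 TPM in others, and their levels are given as listed only.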
